A study of Mus musculus with 7 samples.

Results

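The collagen genes of sorted colonic macrophage RNA were described on 7 arrays. A gene belonged to the set if a probe set carried its symbol alone and the symbol had the form Col, a number, a and a number. Where several probe sets carried 1 symbol, the brightest on average was used. This gave 44 collagen chain genes among the 19938 genes measured, of which 11 were fibrillar, 6 were basement-membrane (type IV) and 27 were other chains.

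Every array held RNA of macrophages that a cell sorter took from the lamina propria of the colon, the connective tissue beneath the gut epithelium, of C57BL/6 mice aged 6 weeks kept free of specific pathogens. Il10ra_mKO (2 arrays) came from CX3CR1cre:IL10Raflox/flox mice, in which Cre expressed from the Cx3cr1 gene deletes the floxed gene of the ligand-binding IL-10 receptor chain, and its reference WT_resident (3 arrays) from Cx3cr1gfp/+ mice, in which GFP replaces 1 Cx3cr1 allele. Both carry the sort label resident. Il10_KO (1 array), from mice lacking the anti-inflammatory cytokine IL-10 that also carry Cx3cr1gfp/+, and its reference WT_CX3CR1hi (1 array), from Cx3cr1gfp/+ mice, carry the sort label CX3CR1hi. No array carried Cre without the floxed receptor gene, so the Cre allele and the deletion cannot be told apart. The labels name GFP for WT_resident and not for Il10ra_mKO, so the GFP allele cannot be told apart from the deletion either. The sort label also goes with the RNA kit (miRNeasy Mini for samples 1 and 2, RNeasy Micro for samples 3 to 7, per the labels), so levels were compared only within a sort label. Nothing in the labels ties an array to an animal, so the spread behind every p-value is one between arrays and may be technical.

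Collagens are built from 3 chains wound into a triple helix. Fibrillar collagens such as types I and III form the banded fibrils of connective tissue, type IV forms the sheet of basement membranes, and others lie on fibrils, form beaded filaments or span membranes. In the gut wall fibroblasts are the main source of fibrillar and type VI collagen, while macrophages are known chiefly for taking up and breaking down matrix.

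Promoter windows of 4 chains are shown as the reference sequence upstream of chains whose values differ below: a type I, a type III and a type VI chain that lay lower in Il10ra_mKO, and a type IV chain that did not separate the groups. They run from 250 bases before to 50 bases after the annotated start and were taken from RefSeq (GRCm38.p6). Col1a2 lies at chr6:4505368-4505667 (plus strand), Col3a1 at chr1:45311288-45311587 (plus), Col6a1 at chr10:76725995-76726294 (minus) and Col4a1 at chr8:11312777-11313076 (minus). Capitals mark the letters CCAAT or its complement ATTGG (the CCAAT box), GGGCGG or its complement CCGCCC (the GC box), each searched on both strands, and TATAAA (the TATA box), searched on the printed strand. No match overlapped another in these 4 windows.
Col1a2: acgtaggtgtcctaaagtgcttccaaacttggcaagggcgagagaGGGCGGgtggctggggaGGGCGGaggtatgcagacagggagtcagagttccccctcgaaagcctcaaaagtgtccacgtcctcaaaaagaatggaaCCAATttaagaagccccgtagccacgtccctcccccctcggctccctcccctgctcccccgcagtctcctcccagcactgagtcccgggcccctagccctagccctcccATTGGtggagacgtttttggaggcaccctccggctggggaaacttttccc
Col3a1: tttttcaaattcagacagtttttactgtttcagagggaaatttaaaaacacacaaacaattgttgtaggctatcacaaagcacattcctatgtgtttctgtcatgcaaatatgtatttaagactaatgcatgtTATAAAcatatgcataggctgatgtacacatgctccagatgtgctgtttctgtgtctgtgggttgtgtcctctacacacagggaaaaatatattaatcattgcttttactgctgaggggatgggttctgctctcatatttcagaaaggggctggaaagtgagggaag
Col6a1: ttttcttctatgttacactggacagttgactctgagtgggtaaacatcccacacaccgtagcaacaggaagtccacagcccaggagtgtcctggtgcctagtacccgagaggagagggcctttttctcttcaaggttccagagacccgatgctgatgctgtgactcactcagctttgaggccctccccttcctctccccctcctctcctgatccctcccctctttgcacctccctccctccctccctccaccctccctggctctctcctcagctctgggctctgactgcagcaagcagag
Col4a1: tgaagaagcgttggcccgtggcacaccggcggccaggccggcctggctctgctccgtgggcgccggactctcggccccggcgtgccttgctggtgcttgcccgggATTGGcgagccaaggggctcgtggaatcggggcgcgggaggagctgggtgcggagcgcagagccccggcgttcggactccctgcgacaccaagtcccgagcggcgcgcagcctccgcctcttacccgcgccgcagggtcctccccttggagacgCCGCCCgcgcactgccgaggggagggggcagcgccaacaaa
Col1a2 held 2 CCAAT and 2 GC box matches, Col3a1 held 1 TATA box match, Col4a1 held 1 CCAAT and 1 GC box match, and the Col6a1 window held none of these letters. RefSeq windows were matched by symbol for 35 of the 44 chains, 38 windows in all. The GC box letters were in 60.5% of the chain windows and 35.7% of all 32851 windows, the CCAAT letters in 34.2% and 37.4%, and the TATAAA letters in 13.2% and 8.32%. A match is a description of letters only. The windows of Col4a1 and Col4a2, which start in opposite directions, share 78 bases.

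Values are log2 expression levels, on which 1 unit is a 2-fold difference, and the level of 1 gene was not set against that of another. Il10ra, the deleted gene, read log2 8.05 and 7.04 in the Il10ra_mKO arrays, against 10.56, 10.76 and 11.12 in the WT_resident arrays, 9.63-fold lower. The macrophage label was checked on Csf1r, the receptor for the growth factor of macrophages, at log2 12.24 and 12.48 in Il10ra_mKO and 12.36, 12.33 and 12.41 in WT_resident. Adgre1, an adhesion receptor that marks mouse macrophages, read log2 12.12 and 12.40 in Il10ra_mKO and 12.25, 12.51 and 12.47 in WT_resident. Epithelial and fibroblast genes were present too. Epcam, an adhesion protein of epithelium, read log2 10.57 and 9.15 in Il10ra_mKO and 10.64, 11.16 and 10.85 in WT_resident.

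Few chains reached log2 6. In Il10ra_mKO 4 of 44 chains had a mean above it (Col14a1, Col1a1, Col1a2 and Col3a1), against 6 in WT_resident, which added Col6a1 and Col6a2. Each of those 6 was above log2 6 in all 3 WT_resident arrays. These counts are 9.09% and 13.6% of the chains, where 47.5% and 48.1% of all genes were above log2 6. In WT_resident the chains just above the threshold were Col6a1 (mean log2 6.36), Col6a2 (6.66) and Col1a2 (7.02), and those just below were Col6a3 (5.83), Col15a1 (5.72) and Col12a1 (5.70). Il10_KO had 3 chains above it (Col14a1, Col1a1, Col3a1) and WT_CX3CR1hi had 5, which added Col1a2 and Col6a2, against 49.5% and 49.9% of all genes.

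**Figure D1:**
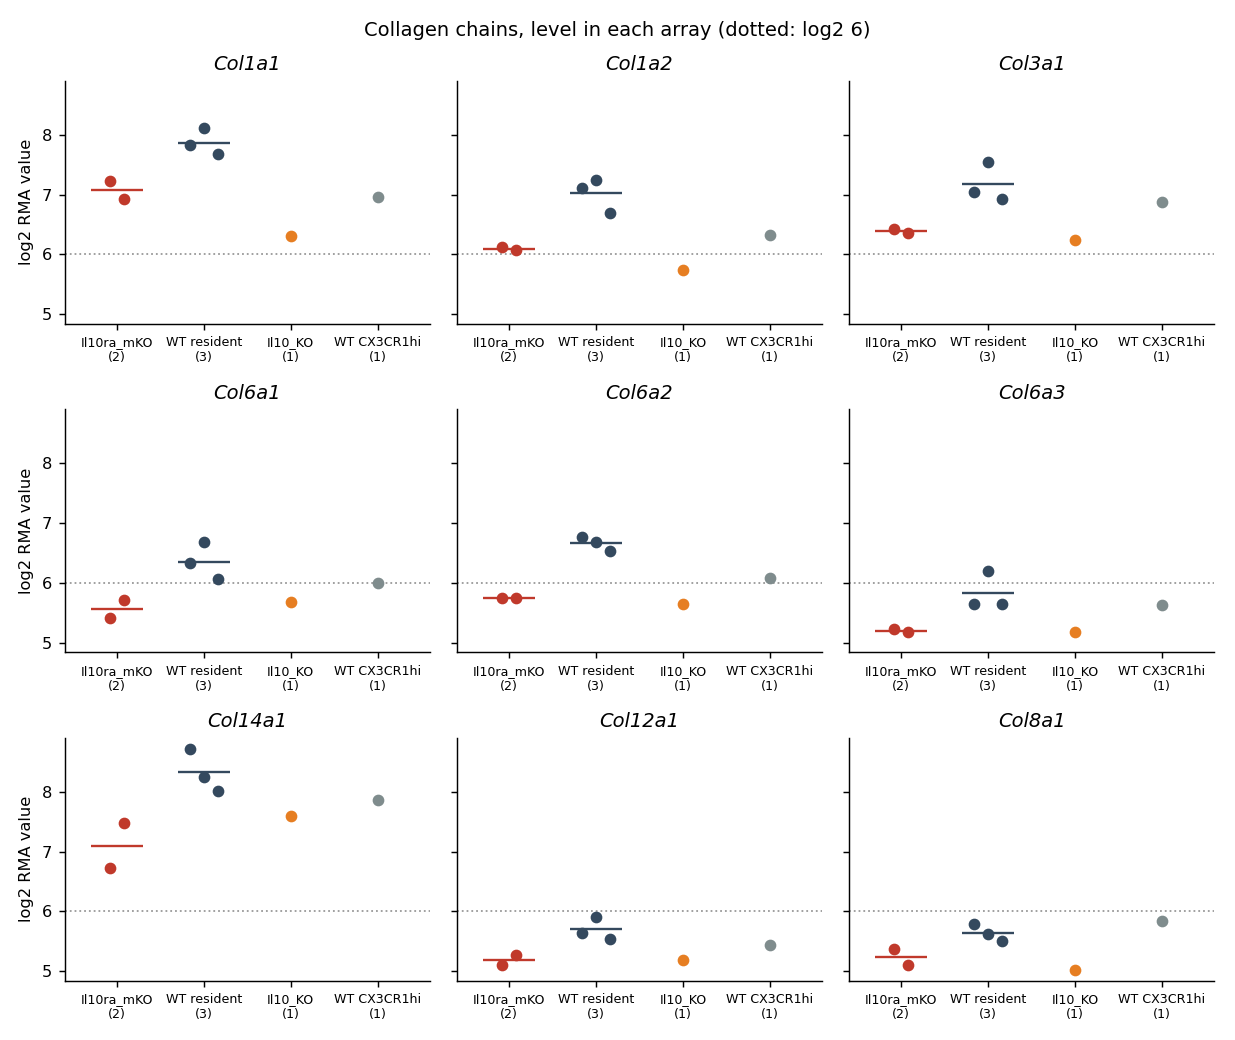
Log2 level (vertical axis) of the 9 collagen chains chosen here for a difference below -0.3, in each of the 7 arrays. Points are single arrays, coloured by group, short lines are group means and the dotted line is log2 6, with Il10ra_mKO left of WT_resident and Il10_KO left of WT_CX3CR1hi. Both Il10ra_mKO arrays lay below all 3 WT_resident arrays for every chain drawn.

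In the comparison of Il10ra_mKO with WT_resident, the differences of the 44 chains ran from -1.23 (Col14a1) to 0.10 (Col6a6) on the log2 scale. No chain passed an adjusted p under 0.05 in either direction in limma, with Benjamini-Hochberg adjustment over all genes, where 1 of 19938 genes was called lower (Fcrls, 0.00502% of genes, named after its values were seen) and 0 were called higher. At an unadjusted p under 0.05, 10 of the 44 chains (22.7%) were lower, where 3.86% of all genes were lower, and 0 chains were higher, where 4.06% of all genes were higher. Both Il10ra_mKO arrays lay below all 3 WT_resident arrays in 11 chains (25%), where the share of all genes was 8.5%. They lay above all 3 in 0 chains, where the share of all genes was 8.92%. With 2 arrays against 3 an exact permutation test of 1 gene cannot go below p = 0.1. Il10ra, the deleted gene, did not pass the adjusted threshold either (limma adjusted p = 0.243). A chain that did not pass it is therefore not shown to be unchanged.

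Type I collagen, the main fibril of connective tissue, is made from the chains of Col1a1 and Col1a2. Col1a1 read log2 7.23 and 6.93 in the Il10ra_mKO arrays, against 7.83, 8.11 and 7.67 in the WT_resident arrays. The groups did not overlap, and the difference was -0.79 ± 0.18 (SE, 2 against 3 arrays), 1.73-fold, with a limma adjusted p of 0.431. For Col1a2 the values were log2 6.12 and 6.07 in Il10ra_mKO, against 7.11, 7.25 and 6.70 in WT_resident. This difference was -0.92 ± 0.19 (SE), 1.9-fold, again without overlap (limma adjusted p = 0.409). Col3a1, the only chain of type III collagen, which forms fine fibrils with type I, read log2 6.43 and 6.36 in Il10ra_mKO, against 7.04, 7.54 and 6.94 in WT_resident. It too was lower in both Il10ra_mKO arrays, by -0.78 ± 0.22 (SE; limma adjusted p = 0.515). All 3 chains of types I and III were thus lower without overlap.

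The remaining 8 fibrillar chains were dim, under log2 6 in every array. Col5a1, a chain of type V collagen, which takes part in starting fibrils, read log2 5.20 and 5.24 in Il10ra_mKO, against 5.28, 5.35 and 5.35 in WT_resident. Its groups were apart, but the difference was small, -0.10 ± 0.03 (SE; limma adjusted p = 0.544). Col5a2, the type V partner chain and RefSeq neighbour of Col3a1, differed by -0.06 ± 0.03 and did not overlap either. The other 6 (Col2a1, Col5a3, Col11a1, Col11a2, Col24a1, Col27a1) overlapped between the groups, with differences from -0.04 to 0.01.

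Type VI collagen forms beaded filaments around cells, and its classical trimer joins the chains of Col6a1, Col6a2 and Col6a3. Col6a2 had the smallest p of all chains. It read log2 5.74 and 5.74 in Il10ra_mKO, against 6.77, 6.69 and 6.53 in WT_resident, a difference of -0.92 ± 0.08 (SE), 1.89-fold (limma adjusted p = 0.208). The 2 Il10ra_mKO arrays were alike and both lay below the lowest WT_resident array by more than the WT_resident arrays spread. Col6a1, the genomic neighbour of Col6a2, read log2 5.42 and 5.71 in Il10ra_mKO, against 6.33, 6.68 and 6.07 in WT_resident (-0.79 ± 0.22 SE, limma adjusted p = 0.519). For Col6a3 the values were log2 5.23 and 5.18 in Il10ra_mKO, against 5.64, 6.20 and 5.64 in WT_resident (-0.63 ± 0.21 SE, limma adjusted p = 0.606). All 3 genes were thus lower without overlap. Col6a4, Col6a5 and Col6a6, which encode alternative type VI chains, overlapped between the groups with differences of -0.12, 0.03 and 0.10.

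Fibril-associated chains with interrupted helices sit on the surface of type I fibrils. Col14a1, the chain of type XIV, read log2 6.73 and 7.47 in Il10ra_mKO, against 8.72, 8.24 and 8.02 in WT_resident. It had the largest difference of the 44 chains, -1.23 ± 0.34 (SE), 2.34-fold (limma adjusted p = 0.512), and also differed most between the 2 Il10ra_mKO arrays. Col12a1, the chain of type XII, read log2 5.10 and 5.27 in Il10ra_mKO, against 5.64, 5.91 and 5.54 in WT_resident (-0.51 ± 0.14 SE, limma adjusted p = 0.492). Both were without overlap. The network-forming chain Col8a1, found in vessel walls, read log2 5.38 and 5.11 in Il10ra_mKO, against 5.78, 5.63 and 5.51 in WT_resident (-0.40 ± 0.13 SE, limma adjusted p = 0.579). Col15a1, a multiplexin that lies beside basement membranes, overlapped, with log2 5.49 and 5.70 in Il10ra_mKO and 5.68, 5.68 and 5.81 in WT_resident.

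Type IV chains did not separate the groups. Col4a1 and Col4a2, the chains of the widespread type IV network, differed by -0.07 and -0.01, and Col4a3 to Col4a6, chains of more restricted basement membranes, by -0.02 to 0.00. All 6 lay between log2 4.91 and 5.56 in the resident arrays, and 0 of 6 was lower at an unadjusted p under 0.05 (3.86% of all genes). Many chains hardly varied: 21 of the 44 chains (47.7%) spanned less than 0.1 over the 5 resident arrays, as did 25.3% of all genes. Among those not above log2 6 in the mean over all 7 arrays, the shares were 53.8% of 39 chains and 42.2% of all genes. Of the 6 type IV chains 5 spanned less than 0.1, and Col4a1 did not. Col4a4, Col5a3 and Col7a1 held 1 same value in all 5, as did 4.23% of all genes. A chain picked for so small a span can hold no larger difference, which does not show that its RNA did not differ. Why these chains hardly varied was not tested.

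By class, the median difference was -0.04 for the fibrillar chains, -0.01 for the basement-membrane chains and -0.01 for the other chains, against 0 for all genes. Unadjusted p under 0.05 with a lower level was found in 4 of 11 fibrillar chains, 0 of 6 basement-membrane chains and 6 of 27 other chains, beside 3.86% of all genes; over 6 chains a count of 0 is near that share. The class medians are those of dim chains. The 5 chains above log2 6 in the mean over all 7 arrays (Col14a1, Col1a1, Col1a2, Col3a1, Col6a2) had a median difference of -0.92, where all genes above that level had 0.03, and the other 39 chains had -0.02. Col6a2 reached that mean through its WT arrays, and the median is its own value. The 4 chains above log2 6 in the Il10ra_mKO mean alone, a set added after seeing the data, had a median of -0.86, where all genes so chosen had 0.03. The higher chains with the smallest p, Col6a5 (0.03), Col9a2 (0.09) and Col6a6 (0.10), overlapped between the groups.

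**Figure D2:**
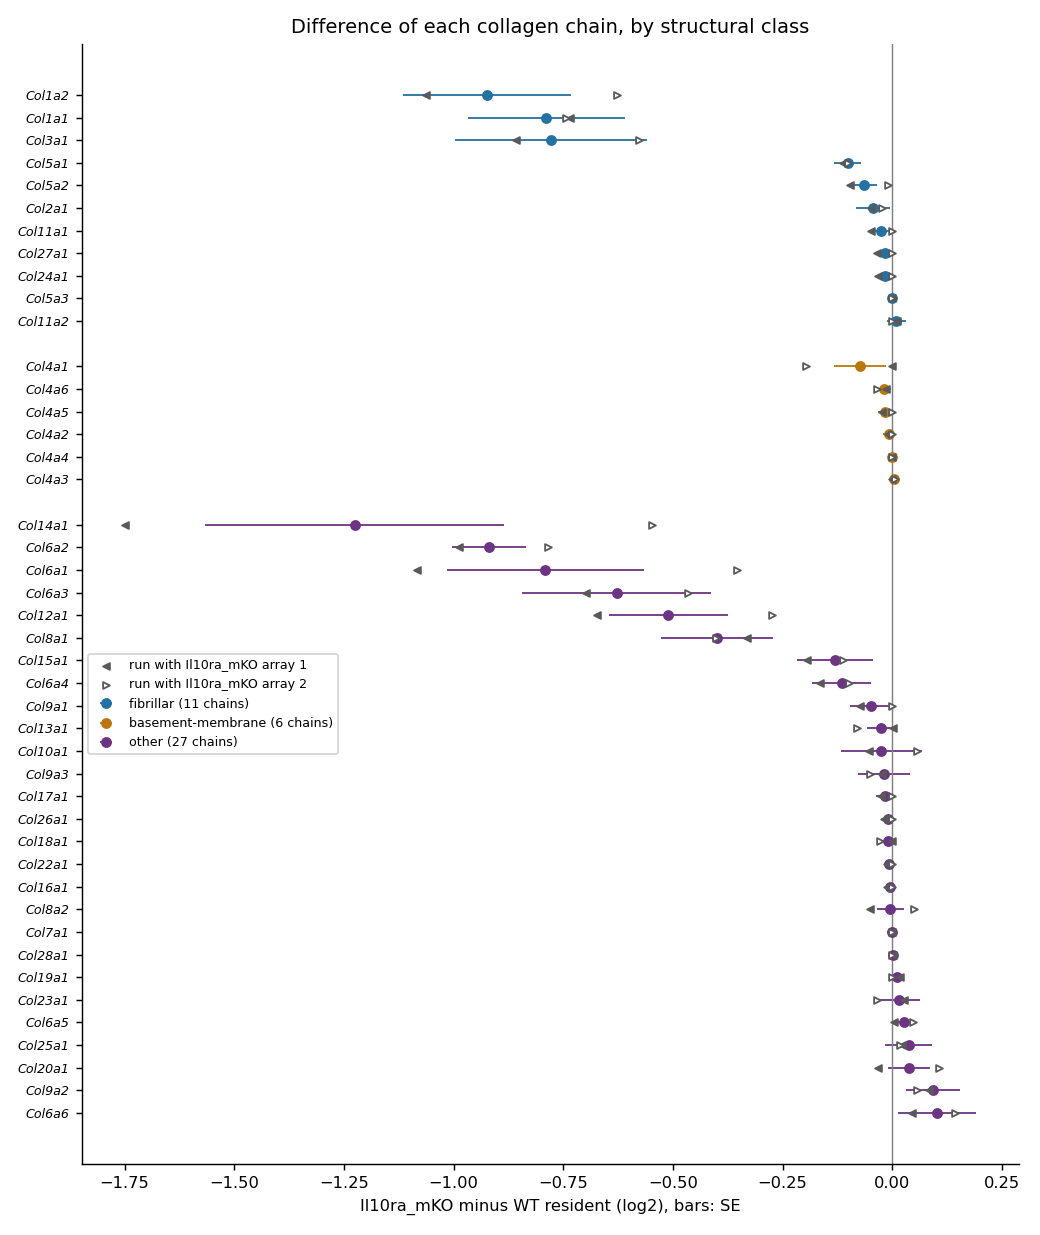
Difference in log2 level of each of the 44 chains, Il10ra_mKO minus WT_resident, with its standard error, ordered within the fibrillar, basement-membrane and other classes. Small marks give the difference within each run of neighbouring sample numbers. 9 chains lay below -0.3, of which 3 were fibrillar and 0 were basement-membrane, and the rest lay near 0.

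The sample numbers in the titles form 2 runs that hold resident arrays of both genotypes, Il10ra_mKO array 1 with WT_resident arrays 1 and 2, and Il10ra_mKO array 2 with WT_resident array 3. The labels do not call them batches. The median difference of the 5 chains was -0.99 within the first run and -0.63 within the second. Col14a1 differed by -1.75 and -0.55 and Col6a1 by -1.08 and -0.35, while Col1a1 differed by -0.74 in each.

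The CX3CR1hi pair gave values only, since each group had 1 array and the difference has no replicate check. Il10_KO was lower than WT_CX3CR1hi in 42 of 44 chains (95.5%), where 43.7% of all genes were lower. By 2-fold or more, 0 chains were lower, where 1.22% of all genes were, and 0 were higher, where 0.692% were. The median difference was -0.14 over all chains, against 0.03 over all genes. It was -0.60 over the 5 chains above log2 6 in the mean over all 7 arrays, where all genes above that level had 0.08. Over the 39 other chains it was -0.14, where all genes not above that level had 0.00. That mean holds both arrays of this pair. Col1a2 and Col6a2 were under log2 6 in Il10_KO (5.74 and 5.64), and the -0.60 is Col1a2's own value. A set added after seeing the data, the 4 chains above log2 6 in the Il10ra_mKO mean, had -0.61 in this pair. All genes so chosen had 0.08. The 2 chains that were higher in Il10_KO were Col10a1, the chain of cartilage type X, by 0.22 and Col6a5 by 0.09.

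Single chains of that pair were led by Col8a1, at log2 5.03 in Il10_KO and 5.83 in WT_CX3CR1hi. Col1a1 read log2 6.30 in Il10_KO and 6.96 in WT_CX3CR1hi. Col1a2 read log2 5.74 in Il10_KO and 6.33 in WT_CX3CR1hi, and Col3a1 read 6.25 in Il10_KO and 6.87 in WT_CX3CR1hi. These type I and III chains differed by 1.51-fold to 1.58-fold. For Col6a2 the levels were log2 5.64 in Il10_KO and 6.07 in WT_CX3CR1hi, for Col6a1 5.67 in Il10_KO and 6.00 in WT_CX3CR1hi, and for Col6a3 5.18 in Il10_KO and 5.63 in WT_CX3CR1hi. Col14a1 differed least of the 5 bright chains, with log2 7.59 in Il10_KO and 7.87 in WT_CX3CR1hi. The type IV chains lay between log2 4.45 and 5.18 in this pair, with a median difference of -0.09. Across the 44 chains the differences of both comparisons, which share no array, had a Pearson r of 0.683 and a Spearman rho of 0.492. This is a description over chains that share their arrays, with most chains dim. Whether the arrays of both comparisons also share 1 normalization is not given.

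**Figure D3:**
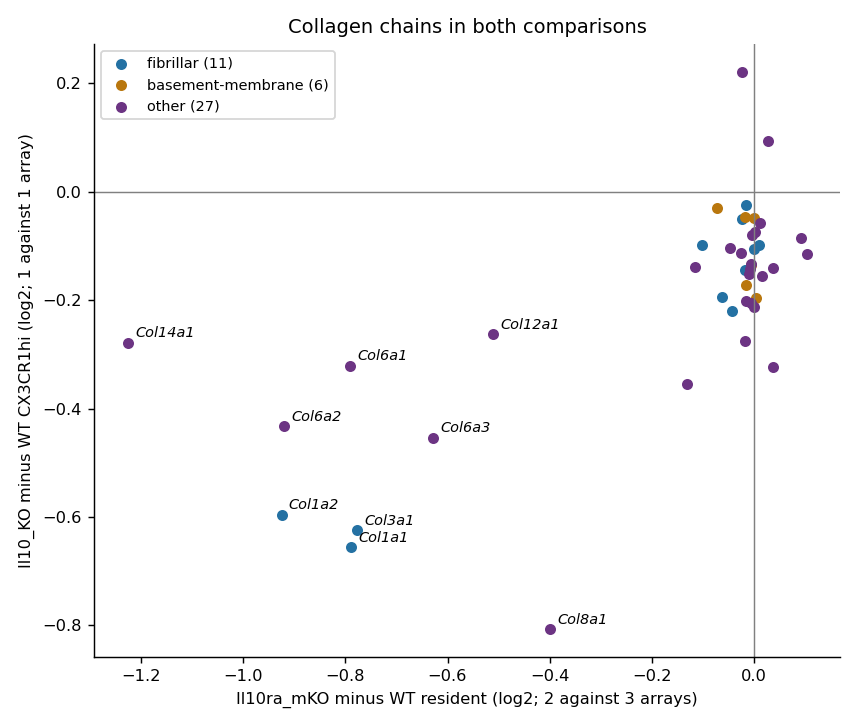
Each point is 1 collagen chain, with its log2 difference Il10ra_mKO minus WT_resident on the horizontal axis and Il10_KO minus WT_CX3CR1hi on the vertical axis, coloured by class. Col14a1 lies at -1.23 and -0.28, and Col8a1, the lowest in the CX3CR1hi pair, at -0.40 and -0.81.

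Genes that make, process, bind or break down collagen were described from lists that hold 104 measured places of 111 listed. At an unadjusted p under 0.05, 29 of the 104 were lower, beside 3.86% of all genes, and 4 were higher, beside 4.06% of all genes, and 0 passed the adjusted threshold. Of the 17 measured interstitial matrix genes 12 were lower at that p (3.86% of all genes) and 14 lay below without overlap (8.5% of all genes), with a median difference of -0.90. Thbs1, a thrombospondin, and Fmod, a small proteoglycan of fibrils, both named after their values were seen, had positive differences of 0.58 and 0.06 with overlap. Postn, a matrix protein that binds type I collagen, read log2 6.98 and 7.90 in Il10ra_mKO, against 9.45, 10.28 and 9.49 in WT_resident (-2.30 ± 0.44 SE, limma adjusted p = 0.374). Dcn, the proteoglycan decorin of collagen fibrils, read log2 9.26 and 9.68 in Il10ra_mKO, against 11.26, 11.39 and 10.63 in WT_resident (-1.62 ± 0.31 SE). Fn1, fibronectin, differed by -1.46 ± 0.23 and Sparc, a collagen-binding matrix protein, by -1.30 ± 0.27. Each of these 4 was lower in both Il10ra_mKO arrays than in every WT_resident array.

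Of 13 measured partner genes of the basement membrane, 7 were lower at an unadjusted p under 0.05 (3.86% of all genes) and 10 lay below without overlap (8.5% of all genes), with a median difference of -0.40. Nid1, which links laminin to type IV collagen, averaged log2 5.52 in Il10ra_mKO (n = 2), against 6.69 ± 0.39 (SD, n = 3) in WT_resident (difference -1.16 ± 0.26 SE, limma adjusted p = 0.424). The laminin chains Lamb2 and Lamb1 differed by -0.73 ± 0.24 and -0.65 ± 0.22. In the CX3CR1hi pair 13 of the 13 partner genes were lower in Il10_KO (43.7% of all genes), with a median difference of -0.37. A difference between these genes and the type IV chains was not tested.

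The 21 folding and modification genes had a median difference of 0.00, with 2 lower at an unadjusted p under 0.05, beside 3.86% of all genes. Serpinh1, the collagen-specific chaperone HSP47, read log2 5.72 and 5.45 in Il10ra_mKO, against 6.21, 6.73 and 6.09 in WT_resident (-0.76 ± 0.24 SE, limma adjusted p = 0.578). P3h2, a prolyl 3-hydroxylase of collagen, read log2 6.46 and 7.66 in Il10ra_mKO, against 9.45, 8.97 and 9.22 in WT_resident (-2.15 ± 0.43 SE, limma adjusted p = 0.396). In the CX3CR1hi pair P3h2 was at log2 9.26 in Il10_KO and 9.38 in WT_CX3CR1hi. P4ha1 and P4hb, the subunits of prolyl 4-hydroxylase, overlapped between the groups, with differences of 0.36 and 0.06. P4hb also serves as a disulfide isomerase in most secreting cells.

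Among 12 trimming and crosslinking genes 1 was lower (3.86% of all genes) and 1 higher (4.06% of all genes) at an unadjusted p under 0.05. Pcolce, which enhances the removal of the C-terminal propeptide, read log2 5.91 and 6.27 in Il10ra_mKO, against 7.26, 7.43 and 6.68 in WT_resident (-1.04 ± 0.29 SE). Bmp1, the protease that removes it, differed by -0.32 ± 0.12. The opposite direction was seen in Tgm2, a transglutaminase that crosslinks matrix proteins and is abundant in macrophages. It read log2 10.88 and 10.77 in Il10ra_mKO, against 8.59, 8.40 and 9.45 in WT_resident (2.01 ± 0.37 SE, limma adjusted p = 0.369).

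The 18 breakdown and uptake genes had a median difference of -0.01, with 2 lower and 2 higher at that p, beside 3.86% and 4.06% of all genes. Mmp14, a membrane-bound collagenase, read log2 10.55 and 10.51 in Il10ra_mKO, against 9.59, 9.33 and 9.86 in WT_resident (0.93 ± 0.18 SE, limma adjusted p = 0.381). Timp3, a matrix-bound inhibitor of metalloproteinases, was lower, with log2 7.05 and 6.82 in Il10ra_mKO, against 7.82, 7.91 and 7.55 in WT_resident. The gelatinase Mmp9 overlapped between the groups, with log2 5.89 and 5.18 in Il10ra_mKO and 7.02, 6.48 and 5.74 in WT_resident. Mrc2, the collagen uptake receptor of mesenchymal cells, was dim in both groups (mean log2 4.87 in Il10ra_mKO and 4.91 in WT_resident). Mrc1, also in this list and named after its values were seen, was bright and lower without overlap. It read log2 11.25 and 11.84 in Il10ra_mKO, against 12.42, 12.26 and 12.28 in WT_resident (-0.78 ± 0.21 SE, limma adjusted p = 0.492).

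Of 10 collagen receptors 3 were lower and 0 higher at an unadjusted p under 0.05, beside 3.86% and 4.06% of all genes. Adgrg1 and Adgrg6, adhesion receptors that bind collagen types III and IV, differed by -1.33 ± 0.43 and -1.03 ± 0.32, both without overlap. The integrin chain Itga2 read log2 8.34 and 6.90 in Il10ra_mKO, against 8.27, 8.37 and 8.10 in WT_resident, so that only the second Il10ra_mKO array was low. Lair1, an inhibitory collagen receptor of leukocytes, overlapped (0.23 ± 0.24 SE). Among 13 regulators 2 were lower and 1 higher, beside the same shares. Ccn1 and Ccn2, matrix-associated proteins induced by growth factors, differed by -1.67 ± 0.45 and -0.69 ± 0.14, and Smad7, an inhibitor of TGF-beta signalling, by -0.47 ± 0.48 with overlap.

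**Figure D4:**
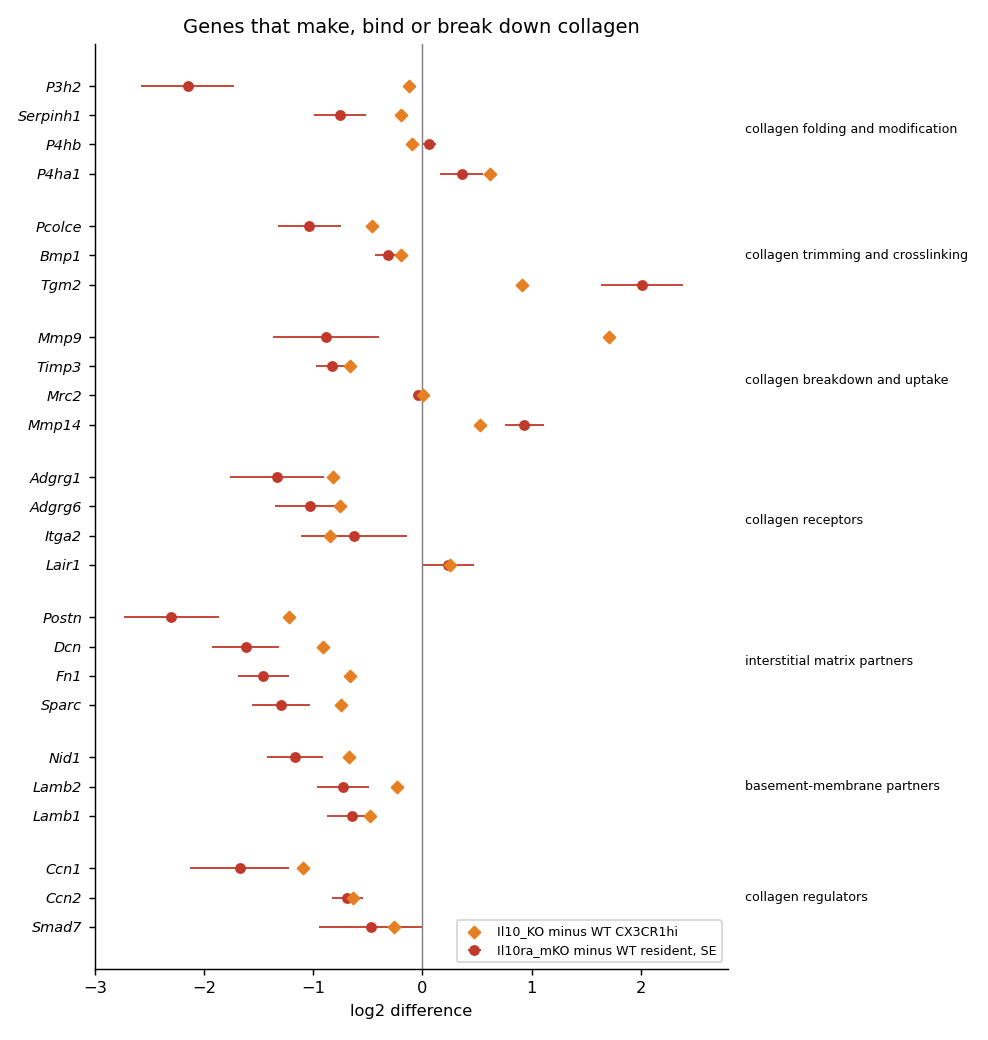
Log2 difference of named partner genes, grouped by list, for Il10ra_mKO minus WT_resident (with its standard error) and for the 1 pair Il10_KO minus WT_CX3CR1hi. Postn (-2.30) and P3h2 (-2.15) lie lowest and Tgm2 (2.01) highest in the Il10ra_mKO comparison.

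No cell type marker passed the adjusted threshold. Of 12 fibroblast markers 8 were lower (3.86% of all genes) and 1 higher (4.06% of all genes) at an unadjusted p under 0.05, with a median difference of -0.69 in the resident arrays and -0.58 in the CX3CR1hi pair. Dcn, Lum, Fbln1 and Mfap5 stand both in this list and among the interstitial matrix genes. Pdgfra, the growth factor receptor that marks fibroblasts, read log2 5.58 and 5.83 in Il10ra_mKO, against 6.79, 7.10 and 6.47 in WT_resident, and 5.65 in Il10_KO, against 6.43 in WT_CX3CR1hi. Dpt, dermatopontin, read log2 7.00 and 7.71 in Il10ra_mKO, against 9.39, 9.76 and 9.01 in WT_resident. The 1 higher marker, named after its values were seen, was Thy1, also a gene of T cells, by 0.40 ± 0.13 (SE). The mean level of the list was log2 6.31 and 6.39 in Il10ra_mKO, against 7.11, 7.22 and 6.88 in WT_resident, and 6.17 in Il10_KO, against 6.74 in WT_CX3CR1hi. That of the 5 bright chains was log2 6.45 and 6.52 in Il10ra_mKO, against 7.49, 7.57 and 7.17 in WT_resident, and 6.30 in Il10_KO, against 6.82 in WT_CX3CR1hi. Both means were lower in the mutant arrays. The part of other cells in the collagen values was not tested, and fewer cells of a type cannot be told apart from less RNA per cell in these bulk samples.

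Of the other cell types, epithelium gave the most uneven values. The mean of 12 epithelial markers was log2 10.95 and 9.13 in Il10ra_mKO, against 10.77, 11.15 and 10.83 in WT_resident. Of the 12, 0 were lower at an unadjusted p under 0.05 (3.86% of all genes) and 5 lay below without overlap (8.5% of all genes). The list mean of Il10ra_mKO array 2 was low, and that of array 1 lay inside the WT_resident range. In the CX3CR1hi pair 11 of the 12 were lower in Il10_KO, where 43.7% of all genes were lower, with a median difference of -0.57. The part of epithelial RNA in the collagen values was not tested. Car1, a carbonic anhydrase of colonocytes, read log2 13.07 and 9.19 in Il10ra_mKO, against 13.31, 13.13 and 12.98 in WT_resident, and the goblet cell mucin Muc2 was likewise low only in array 2 (log2 11.70 and 9.62 in Il10ra_mKO, against 11.85, 12.19 and 11.69 in WT_resident). Of 10 muscle and pericyte markers 0 were lower at an unadjusted p under 0.05 (3.86% of all genes). Acta2 and Myh11 differed by -0.39 and -0.46 with overlap. Of 10 endothelial markers 0 were lower at that p (3.86% of all genes) and 5 lay below without overlap (8.5% of all genes). Over lists of 10 or 12 genes a count of 0 at that p is near the share of all genes. Cdh5 differed by -0.52 and Pecam1, also carried by leukocytes, by 0.58. In the CX3CR1hi pair 10 of the 10 muscle and pericyte markers were lower in Il10_KO, with a median difference of -0.27. So were 8 of the 10 endothelial markers, with a median of -0.18, where 43.7% of all genes were lower. The 12 macrophage markers had a median difference of 0.06, with 1 lower (3.86% of all genes) and 1 higher (4.06% of all genes) at that p. Without overlap, 3 lay below (8.5% of all genes) and 3 above (8.92% of all genes). Cd163, a scavenger receptor, was at -1.70, with log2 8.90, 8.11 and 6.64 in WT_resident, and Mertk, a receptor for dying cells, at 0.95. Named after their values were seen, the lower was Cx3cr1 (-0.49), the gene altered in both genotypes, and the higher Fcgr1 (0.61). The 7 lymphocyte markers had a median of 0.28 (Ms4a1 1.55, Cd79a 1.14), with 2 higher (4.06% of all genes) and 1 lower (3.86% of all genes) at that p. The 6 monocyte and neutrophil markers had a median of 0.45, with 1 higher and 0 lower, beside the same shares. Without overlap, 3 of the 7 lymphocyte and 3 of the 6 monocyte and neutrophil markers lay above (8.92% of all genes). Below lay 1 and 0 (8.5% of all genes). Of the monocyte and neutrophil markers Csf3r differed by 1.07. Ly6g differed by 1.28 with overlap, at log2 9.70 and 8.10 in Il10ra_mKO, against 6.95, 7.75 and 8.17 in WT_resident. The 4 measured glial markers had a median of -0.01.

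**Figure D5:**
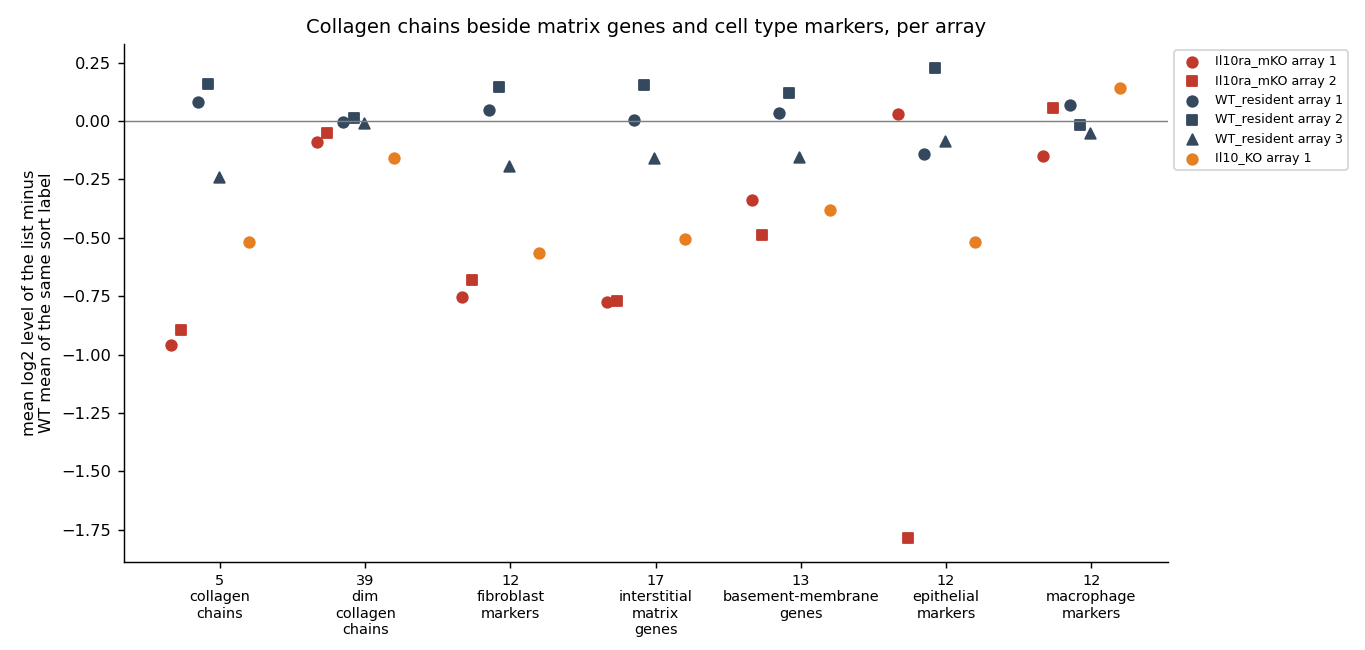
Mean log2 level of each list in each mutant and WT_resident array, minus the WT mean of the same sort label, so that the 1 WT_CX3CR1hi array lies at 0 and is not drawn. Points are arrays. In both Il10ra_mKO arrays and the Il10_KO array the 5 bright collagen chains, the fibroblast markers and the interstitial matrix genes lie below 0, while the epithelial markers are low in Il10ra_mKO array 2 and the Il10_KO array.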

How the data were processed

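The deposited values are log2 expression levels on Affymetrix arrays, and the submitters' processing notes name RMA and Partek. The sources used here do not give their versions or a build, nor whether the arrays went through RMA in 1 run. Of 35399 rows 21789 had 1 gene symbol, 1621 several and 11989 none. The brightest row was kept for the 999 genes with several, which left 19938 genes. All 44 collagen symbols were matched by gene ID to RefSeq. No array had values identical to another's, and precision is limited by having 1 to 3 arrays a group.

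Groups took a mean each in limma 3.58.1 (R 4.3.3; lmFit, contrasts, eBayes with trend) over all 7 arrays. The fit left 3 residual degrees of freedom and a prior of 0.831. P-values are two-sided, with Benjamini-Hochberg adjustment over all genes and a threshold of 0.05. The fit was run on simulated data with independent normal noise and a floor on the spread of each gene. The real values differ, since 2098 of the 19938 genes had no spread over the WT_resident arrays. The simulation therefore cannot vouch for the calls, and nothing is drawn from it. Replicate numbers follow accession order and pair nothing.

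Chains above log2 6 in a resident mean or a CX3CR1hi array, the 3 with the smallest p in each direction and the 3 on either side of log2 6 were named. Each partner list gave its 3 largest differences among genes above log2 6, and Serpinh1, P4hb, Sparc, Mrc2 and Lair1. Each marker list gave its 2 largest and its defining genes. The collagen set and all lists were chosen with earlier results of these data known. Alternatives were another normalization, filter, row rule, threshold, block and leaving out each array.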

Additional observations from a re-analysis of the deposited data

How the results depend on the processing

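The calls depended on the scaling, while the 9 chains below -0.3, which were chosen for that size, stayed below 0 under every alternative run on them. Their ranges included -1.60 to -0.85 for Col14a1, -1.09 to -0.81 for Col1a2 and -0.94 to -0.64 for Col1a1. Over all genes, where 1 passed an adjusted p under 0.05, 4 passed in eBayes without trend, 138 after quantile normalization (68 higher, 70 lower), 421 with equal medians (40.9% higher, 59.1% lower) and 12 with the brightness filter (5 higher, 7 lower), and 0 with runs of neighbouring numbers as a block. The prior degrees of freedom were 0.831 in the reported fit, 3.07 after quantile normalization and 6.91 with equal medians. Chains past it, 0 as reported, numbered 1 after quantile normalization (Col6a2, limma adjusted p = 0.0237) and 5 with equal medians (Col14a1, Col1a1, Col1a2, Col6a1, Col6a2). Partner genes past it, 0 as reported, numbered 18 with equal medians. Chains lower at an unadjusted p under 0.05, 10 as reported, numbered 6 with the brightness filter, which kept 6 chains and 10205 genes, and 8 with the block, where 1 was higher. The filter kept genes above log2 6 in at least 2 arrays. Col6a1 and Col6a2 passed it through WT arrays only, which favours a lower level in the mutants. The share of the kept genes that were lower was not counted. At log2 5.5 in place of log2 6, 12 chains were above the threshold. With equal medians the Il10_KO median over chains was -0.18. Col6a5 reversed to -0.0187 when all its rows were averaged. The causes were not tested.

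Leaving out 1 array at a time gave 0 to 267 calls over all genes (266 without Il10ra_mKO array 1, 267 without array 2 and 0 without any WT_resident array). Without 1 Il10ra_mKO array the other is alone, the spread comes from WT_resident only, and the lone array is assumed to vary likewise. It gave 0 chains at an adjusted p under 0.05 each time, 3 to 9 chains lower at an unadjusted p (3 without Il10ra_mKO array 1, 6 without array 2, 4 without WT_resident array 1), and 0 to 2 higher. Partner genes lower at that p, 29 as reported, numbered 13 to 26 (18 without Il10ra_mKO array 2, 13 and 15 without WT_resident arrays 1 and 2). In 11 to 24 chains every Il10ra_mKO array left in lay below every WT_resident array left in. The 24 came without Il10ra_mKO array 2, where only 1 array has to lie below the 3 others. The share of all genes was not counted in these settings, so the 24 is no stronger result. The median over all chains ran from -0.0295 to -0.0081 (without Il10ra_mKO arrays 2 and 1), over fibrillar chains from -0.06 to -0.02, over basement-membrane chains from -0.01 to -0.01, over other chains from -0.02 to 0.00, and over the 5 bright chains from -0.99 to -0.81. The labels give no shared replicate numbers, so only the runs served as a block.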

Other observations

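The CX3CR1hi pair also gave values for genes that crosslink or break down collagen, with 1 array a group and no replicate check. Mmp9, a gelatinase, read log2 8.80 in Il10_KO and 7.09 in WT_CX3CR1hi. Mmp14, the membrane-bound collagenase, read log2 10.95 in Il10_KO and 10.42 in WT_CX3CR1hi, and the crosslinking enzyme Tgm2 read 10.64 in Il10_KO and 9.73 in WT_CX3CR1hi. These 3 were higher in Il10_KO. Timp3, the metalloproteinase inhibitor, was lower, at log2 6.82 in Il10_KO and 7.48 in WT_CX3CR1hi. The median difference over the 18 breakdown and uptake genes was 0.15, and over the 17 interstitial matrix genes it was -0.55, against 0.03 over all genes.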
